A study of Mus musculus with 16 samples.

Results

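Genes that carry catecholamine and natriuretic peptide signals into fat cells, or limit the cyclic nucleotides these signals produce, were followed across mouse mammary adipose tissue. The 7 were chosen by symbol from the table of 23179 genes, and all of them (Adrb1, Adrb3, Adra1a, Adra2a, Npr1, Npr3 and Pde3b) were found and were among the 21218 genes tested. Total RNA was sequenced from the mammary fat pad opposite the tumor in 16 wild-type female C57BL/6N mice, 1 library per animal and 4 animals per group. Mice arrived at 8 weeks of age. CON-LFD mice were kept on a control low-fat diet throughout. The other groups were made obese on a diet with 60% of energy from fat and then either stayed on it (DIO-HFD), were switched to unrestricted low-fat diet (DIO-LFD), or had vertical sleeve gastrectomy, in which part of the stomach is removed, followed by low-fat diet (DIO-VSG). Sham surgery was given to all but the DIO-VSG mice. E0771 cells, a mouse mammary cancer line, were placed in the 4th mammary fat pad of every mouse at week 22 and the 9th pad was sampled, so that no group was free of tumor, and DIO-VSG differed from DIO-LFD in receiving the gastrectomy in place of the sham operation.

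In fat cells, norepinephrine and epinephrine act through beta adrenoceptors, which couple to Gs, raise cAMP and start the breakdown of stored triglyceride by protein kinase A. Alpha-2 adrenoceptors couple to Gi and oppose this, and alpha-1 adrenoceptors couple to Gq and calcium. Atrial and B-type natriuretic peptides act through Npr1, a receptor with its own guanylyl cyclase that makes cGMP, whereas Npr3 binds the same peptides, lacks the cyclase and clears them. Pde3b is a membrane phosphodiesterase that hydrolyzes cAMP, is activated by insulin through Akt and is a main brake on lipolysis. In mice Adrb3 is the beta adrenoceptor most closely tied to adipocytes, and its stimulation also turns on thermogenic genes.

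Levels are given as normalized counts, the reads of a gene divided by the size factor of its library, and group differences as log2 differences from 1 limma fit over all genes, in which an adjusted P below 0.05 was the threshold. Markers of several cell types were present in the tissue. The adipocyte markers Adipoq and Plin1 were high in every library, with Adipoq between 30428 and 123530.0 normalized counts. The summed level of 12 B cell markers ranged from 1428 to 183351 normalized counts in CON-LFD, from 8979 to 267942 in DIO-HFD, from 44599 to 88715 in DIO-LFD and from 135150.0 to 182796 in DIO-VSG. The scores of B and T cell markers were lowest in CON-LFD replicates 2 and 4 and DIO-HFD replicates 2 and 3. Of 12 skeletal muscle markers all were detected. Their sum ranged from 4892 to 43119 in CON-LFD, from 2774 to 4557 in DIO-HFD, from 2829 to 192261 in DIO-LFD and from 2781 to 31921 in DIO-VSG. The mean log2 deviation of these markers was highest in CON-LFD replicate 4 (3.60), DIO-LFD replicate 4 (5.68) and DIO-VSG replicate 2 (3.01). The next highest library of each of these groups was at 0.158, −0.422 and 0.232. The 20 adipocyte markers were lowest in DIO-HFD replicate 1, with a mean deviation of −1.27 on the log2 scale. All libraries held between 46907377 and 57610899 reads. In bulk tissue, fewer cells of a type and less RNA per cell cannot be told apart.

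The members fell into tiers of abundance. Per kilobase of the longest annotated transcript, the mean over 16 libraries was 6586 normalized counts for Npr3, 3331 for Adrb3, 2511 for Pde3b, 1027 for Npr1, 312 for Adra1a, 164 for Adrb1 and 60.5 for Adra2a. The 4 most abundant members exchanged places between libraries: Npr3 ranked from 1 to 3, Adrb3 from 1 to 4, Pde3b from 2 to 3 and Npr1 from 3 to 4. Adra1a and Adrb1 exchanged ranks 5 and 6, and Adra2a ranked 7 in every library. The lowest raw value of any member was 112 reads, for Adra2a in DIO-HFD replicate 3. Adrb3 was the most variable member between animals of a group. Its within-group SD on the log2 scale was 0.87, higher than that of 85.9% of tested genes, compared with 0.27 for Npr1, the least variable member, and a median of 0.36 over all genes tested.

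The genes lie on several chromosomes of GRCm38 and all are protein coding. Adrb1 (ENSMUSG00000035283.5) is at chromosome 19, 56722199 to 56733113, plus strand, Adrb3 (ENSMUSG00000031489.15) at chromosome 8, 27225776 to 27250616, minus strand, Adra1a (ENSMUSG00000045875.13) at chromosome 14, 66635251 to 66771168, plus strand and Adra2a (ENSMUSG00000033717.6) at chromosome 19, 54044151 to 54048982, plus strand. Npr1 (ENSMUSG00000027931.12) is at chromosome 3, 90450591 to 90465866, minus strand, Npr3 (ENSMUSG00000022206.7) at chromosome 15, 11839896 to 11907287, minus strand and Pde3b (ENSMUSG00000030671.9) at chromosome 7, 114415281 to 114539251, plus strand. The annotated antisense gene Gm16048 overlaps Npr1 and averaged 63.5 normalized counts. Annotated opposite-strand genes also overlap Adrb3 (Gm45470) and Npr3 (Gm5144), and these were not analysed here. Libraries were stranded, but the strand setting of the counting is not given in the sources used here.

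The sequence before the RefSeq start was matched for 4 members, Adrb1, Adra2a, Npr1 and Npr3, by symbol, and Adrb3, Adra1a and Pde3b were not matched. The sequences of 3 are printed, 5′ to 3′ on the gene's strand, to set beside the levels: the member beta adrenoceptor that was matched and the natriuretic peptide receptor pair. Each holds the 250 bases upstream of the start in RefSeq GRCm38.p6, at chr19:56721867-56722116, plus strand (Adrb1), chr3:90465867-90466116, minus strand (Npr1) and chr15:11907372-11907621, minus strand (Npr3). Capitals mark matches, on either strand, to the half-site of the cAMP response element (TGACG), the GC box (GGGCGG) and the CCAAT box (CCAAT).
Adrb1: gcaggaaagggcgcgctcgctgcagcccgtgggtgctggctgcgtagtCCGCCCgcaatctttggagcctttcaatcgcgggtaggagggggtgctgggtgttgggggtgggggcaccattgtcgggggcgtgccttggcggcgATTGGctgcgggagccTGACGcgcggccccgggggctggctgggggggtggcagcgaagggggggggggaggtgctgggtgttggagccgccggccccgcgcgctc
Npr1: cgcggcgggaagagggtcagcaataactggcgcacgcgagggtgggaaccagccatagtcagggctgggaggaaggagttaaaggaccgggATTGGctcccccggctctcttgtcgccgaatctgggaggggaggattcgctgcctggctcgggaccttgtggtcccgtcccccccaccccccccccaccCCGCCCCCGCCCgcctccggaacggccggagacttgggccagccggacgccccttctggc
Npr3: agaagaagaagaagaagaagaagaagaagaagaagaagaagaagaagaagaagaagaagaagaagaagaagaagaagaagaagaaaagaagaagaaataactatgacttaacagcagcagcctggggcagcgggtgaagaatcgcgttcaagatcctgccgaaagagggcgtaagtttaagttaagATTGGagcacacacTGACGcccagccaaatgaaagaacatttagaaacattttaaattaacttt
The Adrb1 and Npr1 sequences were rich in G and C (74.0% and 70.4%), whereas that of Npr3 held 38.8% and a long run of the triplet aga, against a median of 52.4% over 32817 promoters. The half-site TGACG matched once in Adrb1, Npr3 and Adra2a, and 17.7% of all these promoters held it. The full element TGACGTCA, held by 1.5% of promoters, and the TATA box TATAAA, held by 12.4%, matched in none of the 3 printed. The GC box, held by 32.7% of promoters, matched once in Adrb1 and at 2 adjacent places in Npr1. The CCAAT box, held by 33.8%, matched once in each of the 3. In Adra2a, whose sequence is not printed, the TATA box and the GC box matched, and the full element and the CCAAT box did not. A match of these letters is a description and not a binding site.

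The beta adrenoceptors start the lipolytic signal. For Adrb3, normalized counts in CON-LFD replicates 1 to 4 were 10809, 13831, 8599.5 and 12701. In DIO-HFD they were 3631, 6986, 1640.4 and 8974. In DIO-LFD they were 3085.5, 10697, 16981.5 and 15346, and in DIO-VSG 7300.2, 4368.5, 12343 and 11646.5. The 3 lowest libraries of all were DIO-HFD replicate 3, DIO-LFD replicate 1 and DIO-HFD replicate 1, and within DIO-HFD, DIO-LFD and DIO-VSG the highest library was between 2.83 and 5.5 times the lowest. DIO-HFD averaged 5308 ± 3292 against 11485 ± 2292 in CON-LFD (SD), and the ranges overlapped (−1.36 on the log2 scale with a 95% interval of −2.59 to −0.14 and an SE of 0.57, limma unadjusted P = 0.0315, adjusted P = 0.338). Without DIO-HFD replicate 3 the difference was −0.89, and the limma unadjusted P was 0.123. It was −0.43 with library weights, which lower the influence of variable libraries (limma unadjusted P = 0.306), and −0.76 without the 4 libraries lowest in B cell markers (limma unadjusted P = 0.351). With the adipocyte score or the skeletal muscle score in the model it was −1.19 and −1.23 (limma unadjusted P = 0.0992 and 0.0727). Mean Adrb3 in DIO-LFD (11528 ± 6226) was close to that of CON-LFD, with a fitted difference of −0.23 (95% interval −1.45 to 0.99). DIO-VSG averaged 8914.5 ± 3763, and its difference from DIO-HFD was 0.90 (95% interval −0.32 to 2.13), or 0.10 with library weights. That difference was 0.43 without DIO-HFD replicate 3 (limma unadjusted P = 0.438) and 1.25 without DIO-HFD replicate 4 (limma unadjusted P = 0.0536). DIO-LFD minus DIO-HFD was 1.13 (95% interval −0.09 to 2.35), and it was 1.68 without DIO-LFD replicate 1 (limma unadjusted P = 0.00509), 0.66 without DIO-HFD replicate 3 (limma unadjusted P = 0.244) and 0.59 with library weights (limma unadjusted P = 0.131).

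**Figure D1:**
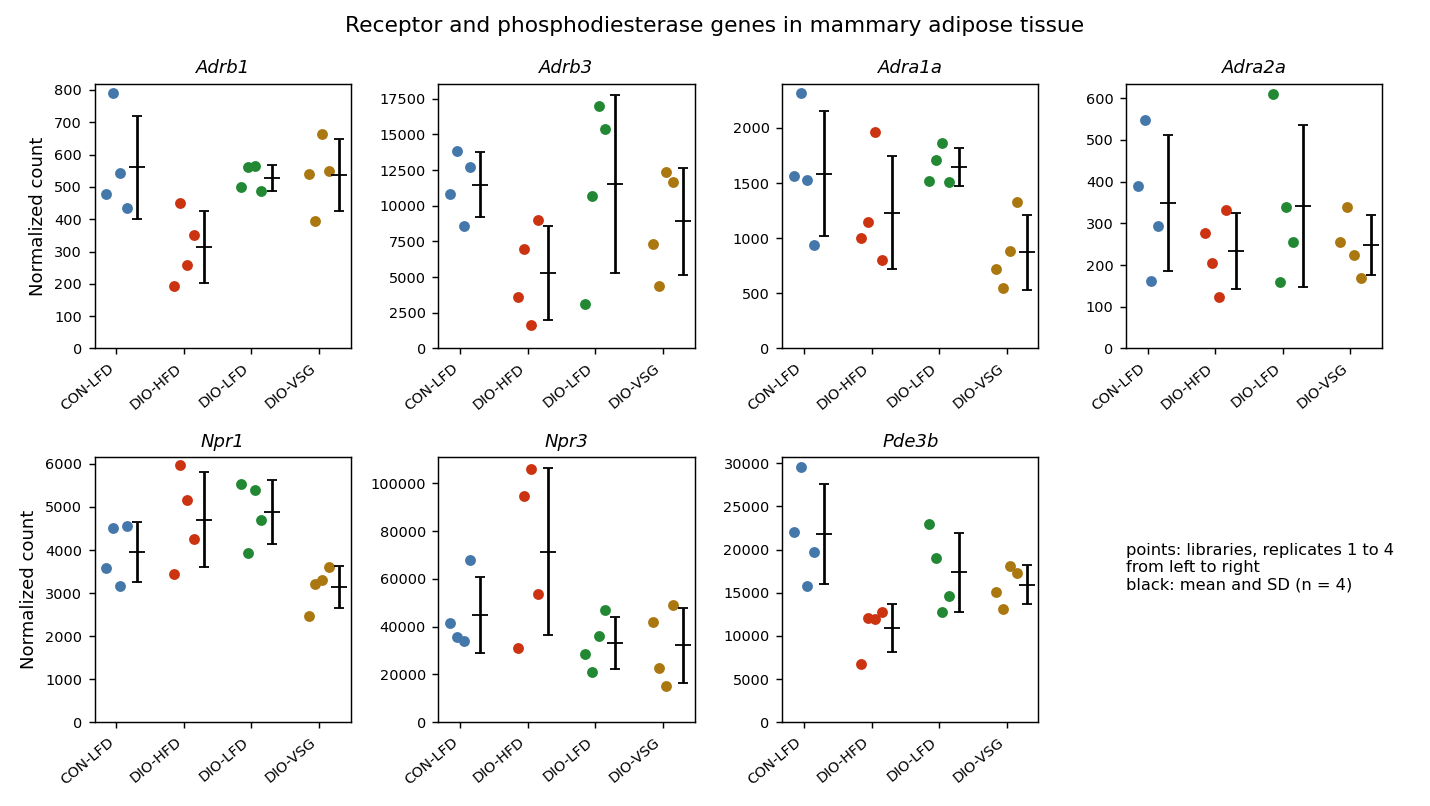
Normalized counts (y axis, linear, from 0) of the 7 members in each group (x axis), with 1 point per library and the mean and SD of 4 libraries in black. Pde3b in the 4 DIO-HFD libraries sits between 6797 and 12822, under all CON-LFD and DIO-VSG libraries, whereas Adrb3 and Npr3 spread widely within groups.

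Adrb1, the beta-1 adrenoceptor, was less abundant and more even between animals. Its normalized counts were 477, 789.8, 542 and 434 in CON-LFD replicates 1 to 4 and 193, 449, 259 and 349.9 in DIO-HFD. They were 501.1, 560.4, 564 and 487 in DIO-LFD and 541, 393, 664 and 549 in DIO-VSG. All DIO-LFD libraries were above all DIO-HFD libraries, while DIO-HFD replicate 2 overlapped with CON-LFD and DIO-VSG. The mean was 313 ± 111 in DIO-HFD and 561 ± 159 in CON-LFD (−0.87 on the log2 scale with a 95% interval of −1.40 to −0.34 and an SE of 0.25, limma unadjusted P = 0.00324, adjusted P = 0.22). DIO-LFD averaged 528 ± 39.7, above DIO-HFD (0.82 on the log2 scale with a 95% interval of 0.29 to 1.35 and an SE of 0.25, limma unadjusted P = 0.00485, adjusted P = 0.45). DIO-VSG averaged 537 ± 111, also above DIO-HFD (0.82 on the log2 scale with a 95% interval of 0.30 to 1.35 and an SE of 0.25, limma unadjusted P = 0.00479, adjusted P = 0.271). The 3 low-fat groups were close to each other: DIO-VSG minus DIO-LFD was 0.00 (95% interval −0.53 to 0.53) on the log2 scale. Each Adrb1 difference from DIO-HFD kept an unadjusted limma P below 0.05 in 16 of 16 fits without 1 library. Leaving out a library of a group not compared cannot change the difference itself, only the estimate of spread. Mammary epithelium markers moved with Adrb1: r with their score was 0.72 over the 16 libraries and 0.68 within groups. Of 11 such markers 7 were lower in DIO-HFD vs the mean of the low-fat groups (11.6% of all genes had such a P in either direction), 8 were higher in DIO-LFD vs DIO-HFD (8.53% of all genes) and 1 was higher in DIO-VSG vs DIO-HFD (13.2% of all genes), at an unadjusted limma P below 0.05. The median log2 difference of these markers was 0.72 in DIO-LFD vs DIO-HFD and 0.28 in DIO-VSG vs DIO-HFD, beside 0.82 for Adrb1 in both. Their part in the Adrb1 levels was not tested.

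Of the alpha adrenoceptors, Adra1a, the alpha-1A receptor, was at 1566, 2312, 1526 and 938.5 normalized counts in CON-LFD replicates 1 to 4 and at 1004, 1151, 1967 and 805.5 in DIO-HFD. It was at 1514, 1711, 1862 and 1505 in DIO-LFD and at 725, 544, 883 and 1332 in DIO-VSG. DIO-VSG held the lowest group mean (871 ± 337), and all its libraries were below all DIO-LFD libraries, which averaged 1648 ± 171. That difference was 1.99-fold (−0.99 on the log2 scale with a 95% interval of −1.66 to −0.32 and an SE of 0.31, limma unadjusted P = 0.00678, adjusted P = 0.509). Against CON-LFD (1586 ± 563) the ranges overlapped (−0.87 on the log2 scale with a 95% interval of −1.54 to −0.20 and an SE of 0.31, limma unadjusted P = 0.0147, adjusted P = 0.268), and the unadjusted limma P was 0.0558 without CON-LFD replicate 2. DIO-HFD averaged 1232 ± 510.0, between DIO-VSG and the other groups, and its difference from CON-LFD was −0.38 (95% interval −1.05 to 0.30). With library weights that difference was −0.87 (limma adjusted P = 0.0257, a threshold that 19.8% of all genes passed in that fit), and DIO-VSG minus DIO-HFD turned from −0.49 to 0.05 (limma adjusted P = 0.873), so that DIO-VSG was not below DIO-HFD under that setting. With the B cell score in the model, DIO-VSG minus CON-LFD was −0.57 (limma unadjusted P = 0.125).

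Adra2a, the inhibitory alpha-2A receptor, did not separate the groups. Its normalized counts were 388.5, 548, 161 and 292 in CON-LFD replicates 1 to 4, 276, 206, 122 and 331 in DIO-HFD, 610.3, 159.7, 339 and 255 in DIO-LFD and 256, 340.0, 225 and 169.6 in DIO-VSG. Every pair of groups overlapped. The means were 348 ± 163, 234 ± 90.3, 341 ± 194 and 248 ± 71.2 in that order, and DIO-HFD minus CON-LFD was −0.53 (95% interval −1.47 to 0.41), between −0.85 and −0.25 without 1 library and −0.17 with library weights. Library weights also turned DIO-VSG minus DIO-HFD from 0.13 to −0.46 and DIO-LFD minus DIO-HFD from 0.47 to −0.17, so that the order of the groups was not stable. For DIO-VSG over DIO-HFD the 95% interval ran from 0.57 to 2.11 as a ratio.

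The natriuretic peptide receptors differed from each other in level and in pattern. Npr1, the signaling receptor, was at 3578, 4517, 3169.7 and 4548 normalized counts in CON-LFD replicates 1 to 4, at 3439.5, 5976, 5157 and 4253 in DIO-HFD and at 5531, 3932, 5398 and 4688 in DIO-LFD. In DIO-VSG it was at 2469.7, 3202, 3307 and 3617. All DIO-VSG libraries were below all DIO-LFD libraries, and DIO-HFD replicate 1 overlapped with DIO-VSG. The mean was 3149 ± 486 in DIO-VSG against 4887 ± 737 in DIO-LFD (−0.64 on the log2 scale with a 95% interval of −1.03 to −0.24 and an SE of 0.18, limma unadjusted P = 0.00365, adjusted P = 0.509). Against DIO-HFD (4706 ± 1099) DIO-VSG was also lower (−0.56 on the log2 scale with a 95% interval of −0.95 to −0.17 and an SE of 0.18, limma unadjusted P = 0.00802, adjusted P = 0.275), and both differences had an unadjusted limma P below 0.05 in 16 of 16 fits without 1 library. Those of the 16 fits that left out a library of a group not compared could change only the estimate of spread. CON-LFD averaged 3953 ± 689.6, and DIO-HFD minus CON-LFD was 0.24 (95% interval −0.15 to 0.63).

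Cell type markers moved with Npr1. The summed level of 10 endothelial markers was 46299 to 46940.0 normalized counts in DIO-VSG, 53615 to 89055 in DIO-HFD and 46364 to 98148 in DIO-LFD, with every marker detected. In DIO-VSG vs DIO-HFD 7 of these 10 were lower at an unadjusted limma P below 0.05, where 13.2% of all genes had such a P, and their median log2 difference was −0.61, beside −0.56 for Npr1. Of 10 smooth muscle and pericyte markers 8 were lower and 1 was higher there, with a median of −0.71, and their sum was 41006 to 54367 in DIO-VSG and 60546 to 92463 in DIO-HFD. B cell markers, given above, were high in all 4 DIO-VSG libraries. The 16 libraries share the tissue and its mix of cells. Over them Pearson's r of Npr1 was 0.76 with the endothelial marker score, 0.61 with the smooth muscle and pericyte score and −0.58 with the B cell score. For deviations from group means these values were 0.65, 0.49 and −0.73. With the adipocyte score r was 0.49 over the 16 libraries and 0.74 for deviations from group means, and with the T cell score −0.67 and −0.76. With the B cell score in the model the DIO-VSG minus DIO-HFD difference was −0.35 (limma adjusted P = 0.429), compared with −0.56. Without the 4 libraries lowest in B cell markers it was −0.29 (limma adjusted P = 0.781). These 4 are CON-LFD and DIO-HFD libraries, so that fit could not change DIO-VSG minus DIO-LFD, which was −0.64 (limma adjusted P = 0.125). The part of endothelial, smooth muscle and pericyte content in the Npr1 differences was not tested.

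Npr3, the clearance receptor, was the most abundant member per kilobase on average. Its normalized counts were 41736, 35837, 34017 and 68058 in CON-LFD replicates 1 to 4 and 31003, 94521, 105972 and 53787 in DIO-HFD. They were 28674, 21163, 35987 and 46848 in DIO-LFD and 41789.8, 22717, 15251 and 48876 in DIO-VSG. DIO-HFD replicates 2 and 3 were the highest of the 16 libraries, DIO-HFD replicate 1 lay below all CON-LFD libraries, and all groups overlapped. The means were 71321 ± 34985 in DIO-HFD, 44912 ± 15778 in CON-LFD, 33168 ± 10946 in DIO-LFD and 32158 ± 15782 in DIO-VSG. DIO-VSG was 2.2-fold below DIO-HFD (−1.14 on the log2 scale with a 95% interval of −2.07 to −0.21 and an SE of 0.43, limma unadjusted P = 0.0193, adjusted P = 0.315) and DIO-LFD 2.01-fold below it (−1.01 on the log2 scale with a 95% interval of −1.93 to −0.08 and an SE of 0.43, limma unadjusted P = 0.0351, adjusted P = 0.548). DIO-HFD minus CON-LFD was 0.57 (95% interval −0.36 to 1.49), and it was 0.92 without DIO-HFD replicate 1 (limma unadjusted P = 0.0437) and 0.32 without DIO-HFD replicate 3 (limma unadjusted P = 0.484). Without DIO-HFD replicate 3 the DIO-LFD difference was −0.76 (limma unadjusted P = 0.113), and without DIO-VSG replicate 3 the DIO-VSG difference was −0.83 (limma unadjusted P = 0.0747). DIO-HFD replicates 2 and 3 were also 2 of the 4 libraries lowest in B and T cell markers. Without these 4 libraries, DIO-VSG minus DIO-HFD was −0.49 (limma adjusted P = 0.884) and DIO-LFD minus DIO-HFD −0.36 (limma adjusted P = 0.669). With the adipocyte marker score in the model, DIO-VSG minus DIO-HFD was −1.35 (limma adjusted P = 0.0226), and 15.2% of all genes passed the adjusted threshold in that fit. With the B cell score in the model, DIO-VSG minus DIO-HFD was −0.80 (limma unadjusted P = 0.0801, adjusted P = 0.541) and DIO-LFD minus DIO-HFD −0.83 (limma unadjusted P = 0.056, adjusted P = 0.334). With library weights the DIO-LFD difference was −0.68 (limma unadjusted P = 0.0568).

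Pde3b, the insulin-sensitive phosphodiesterase, separated DIO-HFD from both CON-LFD and DIO-VSG. Normalized counts were 22087, 29550.4, 15835.5 and 19683 in CON-LFD replicates 1 to 4 and 6797, 12122, 12019 and 12822 in DIO-HFD. They were 22950.3, 19079, 12773 and 14639 in DIO-LFD and 15056, 13177, 18159 and 17294 in DIO-VSG. All 4 DIO-HFD libraries were below all CON-LFD and all DIO-VSG libraries, and they overlapped with DIO-LFD only through DIO-HFD replicate 4 and DIO-LFD replicate 3. DIO-HFD averaged 10939.8 ± 2785 against 21789 ± 5779.5 for CON-LFD, a 2-fold difference (−1.0 on the log2 scale with a 95% interval of −1.51 to −0.49 and an SE of 0.24, limma unadjusted P = 0.00091, adjusted P = 0.176). DIO-VSG (15921 ± 2249) was 1.49-fold above DIO-HFD (0.57 on the log2 scale with a 95% interval of 0.06 to 1.09 and an SE of 0.24, limma unadjusted P = 0.031, adjusted P = 0.345). DIO-LFD (17360.4 ± 4569.7) was 1.59-fold above it (0.67 on the log2 scale with a 95% interval of 0.16 to 1.19 and an SE of 0.24, limma unadjusted P = 0.0139, adjusted P = 0.478). DIO-HFD replicate 1, the lowest library for Pde3b, was also the lowest in adipocyte markers, and Pearson's r of Pde3b with the adipocyte score was 0.78 over the 16 libraries. Without that library the differences from DIO-HFD were 0.36 for DIO-VSG (limma unadjusted P = 0.121) and 0.46 for DIO-LFD (limma unadjusted P = 0.0544), and −0.79 for DIO-HFD minus CON-LFD. With the adipocyte score in the model, DIO-HFD minus CON-LFD was −0.65 (limma adjusted P = 0.17) and DIO-LFD minus DIO-HFD 0.34 (limma unadjusted P = 0.111). With library weights DIO-LFD minus DIO-HFD was 0.30 (limma unadjusted P = 0.0745).

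**Figure D2:**
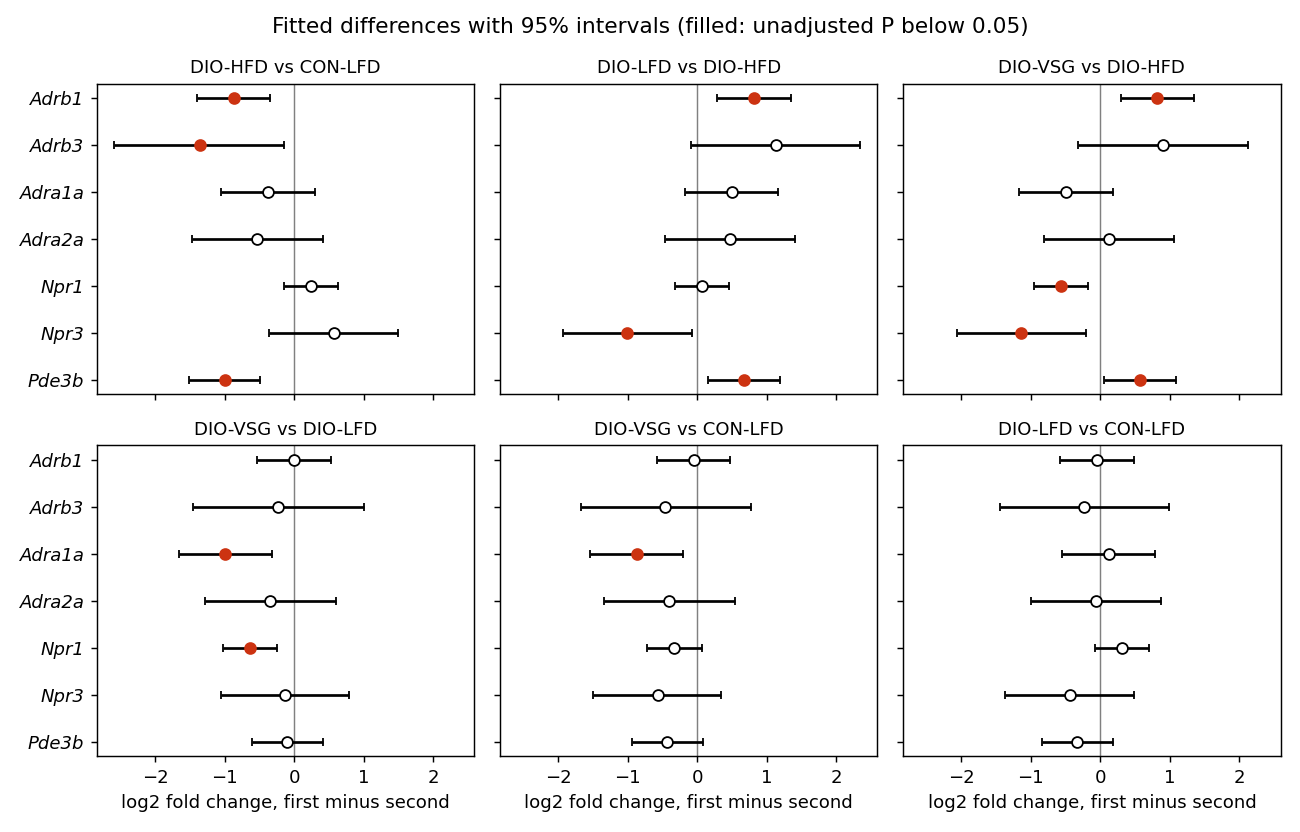
Fitted log2 fold changes of each member (x axis, first group minus second) with 95% intervals, in the 6 pairwise comparisons of groups (panels). Filled points have a limma unadjusted P below 0.05, as for Pde3b at −1.0 in DIO-HFD vs CON-LFD, and no point passed the adjusted threshold of 0.05.

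The counts of members were then set against those of all genes. Continued obesity together with high-fat feeding was addressed by setting DIO-HFD against CON-LFD. There 0 of 7 members passed a limma adjusted P of 0.05, and 0.0377% of genes did. An unadjusted P below 0.05 was found for 3 members (Adrb1, Adrb3 and Pde3b, all lower in DIO-HFD) and for 12.9% of genes. The ranges of the groups did not overlap for 1 member, Pde3b, and for 4.76% of genes. The median log2 difference of the members was −0.53, that of the 20 adipocyte markers −0.49 (18 of 20 negative) and that of all genes 0.02. When DIO-HFD was compared with the mean of the 3 low-fat groups, 0 members passed the adjusted threshold, where 0% of genes did. An unadjusted P below 0.05 was found for 4 members (Adrb1, Adrb3 and Pde3b lower, Npr3 higher) and 11.6% of genes, and separate ranges for 0 members and 0.566% of genes. In that comparison Adrb1 was at −0.84 (SE 0.20, adjusted P = 0.15 in limma), Pde3b at −0.75 (SE 0.20, adjusted P = 0.182), Npr3 at 0.91 (SE 0.35, adjusted P = 0.337) and Adrb3 at −1.13 (SE 0.47, adjusted P = 0.367). Without DIO-HFD replicate 3, Npr3 was at 0.66 (limma unadjusted P = 0.105) and Adrb3 at −0.66 (limma unadjusted P = 0.171).

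The comparisons with DIO-HFD as the reference addressed weight loss on low-fat diet and share the DIO-HFD libraries with the preceding ones. Only DIO-HFD mice were on high-fat diet at sampling, so current diet and body weight cannot be told apart in any comparison with DIO-HFD. For DIO-VSG, 0 members passed the adjusted threshold, where 0% of genes did, and 4 (Adrb1 and Pde3b higher, Npr1 and Npr3 lower) had an unadjusted P below 0.05, where 13.2% of genes did. Ranges were separate for 1 member, Pde3b, and for 6.59% of genes. For DIO-LFD, 0 members passed the adjusted threshold, where 0% of genes did. An unadjusted P below 0.05 was found for 3 members (Adrb1 and Pde3b higher, Npr3 lower) and 8.53% of genes, and separate ranges for 1 member, Adrb1, and 4.51% of genes.

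The other comparisons set the low-fat groups against each other. Between DIO-VSG and DIO-LFD, 0 members and 0% of genes passed the adjusted threshold, and 2 members (Adra1a and Npr1, both lower in DIO-VSG) had an unadjusted P below 0.05, where 9.71% of genes did. The same 2 members had separate ranges, as did 18.8% of genes. Between DIO-VSG and CON-LFD, 0 members and 0% of genes passed the adjusted threshold, 1 member (Adra1a, lower in DIO-VSG) and 17.8% of genes had an unadjusted P below 0.05, and 0 members and 7.02% of genes had separate ranges. Between DIO-LFD and CON-LFD, 0 members passed the adjusted threshold, where 0.00471% of genes did, and 0 members had an unadjusted P below 0.05, where 6.26% of genes did. Separate ranges were found for 0 members and 3.53% of genes. Limma-voom on the recovered reads gave 0 members past the adjusted threshold in each of the 7 comparisons, and the same numbers of members at an unadjusted P below 0.05 as above. With library weights, 3 members passed in DIO-HFD vs CON-LFD (Pde3b, Adra1a and Adrb1, limma adjusted P = 0.0105, 0.0257 and 0.0348), where 19.8% of all genes passed, while Adrb3 was at −0.43 there and at −0.37 against the mean of the low-fat groups (limma unadjusted P = 0.306 and 0.184). The other settings in which members passed are given with the dependence on processing.

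Ratios of opposing receptors within a library were taken as a description, without a test. The log2 ratio of Npr1 to Npr3 per kilobase was −2.78, −2.23, −2.66 and −3.14 in CON-LFD replicates 1 to 4 and −2.41, −3.22, −3.60 and −2.90 in DIO-HFD. It was −1.61, −1.67, −1.98 and −2.56 in DIO-LFD and −3.32, −2.07, −1.44 and −3.00 in DIO-VSG. The clearance receptor exceeded the signaling receptor in all 16 libraries, from 2.72-fold in DIO-VSG replicate 3 to 12.1-fold in DIO-HFD replicate 3. The group means were −2.70 ± 0.38 in CON-LFD, −3.03 ± 0.50 in DIO-HFD, −1.95 ± 0.43 in DIO-LFD and −2.46 ± 0.86 in DIO-VSG (SD, 4 libraries each), and DIO-VSG covered nearly the whole range. For Adrb3 to Adra2a the log2 ratio was 5.59, 5.45, 6.52 and 6.23 in CON-LFD replicates 1 to 4, 4.51, 5.87, 4.54 and 5.55 in DIO-HFD, 3.13, 6.86, 6.44 and 6.70 in DIO-LFD and 5.62, 4.47, 6.57 and 6.89 in DIO-VSG. Adrb3 exceeded Adra2a in every library, and the smallest excess, 8.74-fold, was in DIO-LFD replicate 1. The means were 5.95 ± 0.51 in CON-LFD, 5.12 ± 0.70 in DIO-HFD, 5.78 ± 1.78 in DIO-LFD and 5.89 ± 1.09 in DIO-VSG, so that every pair of groups overlapped.

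**Figure D3:**
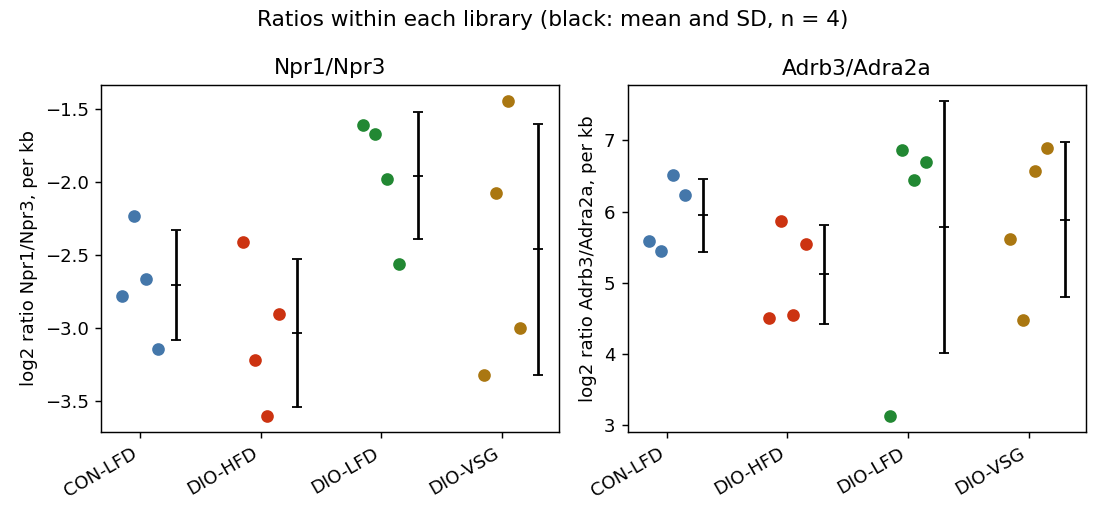
Log2 ratio per kilobase of transcript (y axis) of Npr1 to Npr3 and of Adrb3 to Adra2a in each library (points) by group (x axis), with mean and SD of 4 libraries in black. Npr1 to Npr3 is below 0 in all libraries, and DIO-LFD replicate 1 stands apart at 3.13 for Adrb3 to Adra2a.

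The rest of the pathway was examined through gene lists. Of the other adrenoceptors, 5 of 5 were tested. In DIO-HFD vs the mean of the low-fat groups 1 was higher and 0 were lower at an unadjusted limma P below 0.05, where 11.6% of all genes had such a P. The 1 higher gene was Adra1b, an alpha-1 receptor, at 102 ± 24.7 normalized counts in DIO-HFD, 66.1 ± 33.4 in CON-LFD, 60.8 ± 34.4 in DIO-LFD and 55.7 ± 9.8 in DIO-VSG (log2 difference 0.80 against the mean of the low-fat groups, SE 0.31, limma adjusted P = 0.336). Adra1d and Adra2b had log2 fold changes of 0.57 and 0.58 there, with limma adjusted P values of 0.538 and 0.539. Of 8 genes for natriuretic peptides and their processing, 5 were tested and 0 had an unadjusted P below 0.05 in that comparison. Nppb, which encodes B-type natriuretic peptide, averaged 26.2 ± 38.5 normalized counts in DIO-HFD, 1.0 ± 1.3 in CON-LFD, 17.4 ± 27.9 in DIO-LFD and 4.0 ± 8.1 in DIO-VSG. Npr2, the receptor for C-type natriuretic peptide, averaged 4171 ± 747 in CON-LFD, 3559 ± 788 in DIO-HFD, 4122 ± 268 in DIO-LFD and 2908.5 ± 426 in DIO-VSG. Furin and Corin are proteases that process the peptides, and Furin averaged 6460.3 ± 472 in CON-LFD, 6482 ± 1135 in DIO-HFD, 7828 ± 627 in DIO-LFD and 5637 ± 767 in DIO-VSG. All DIO-VSG libraries were below all DIO-LFD libraries for both Npr2 (log2 difference −0.51, limma unadjusted P = 0.00796, adjusted P = 0.509) and Furin (−0.48, limma unadjusted P = 0.0019, adjusted P = 0.509), in a comparison where 18.8% of all genes had separate ranges. Npr2 was also lower in DIO-VSG than in CON-LFD at −0.51 (limma unadjusted P = 0.00783, adjusted P = 0.268), with overlapping ranges. Corin had a log2 difference of −0.16 in DIO-HFD vs the mean of the low-fat groups.

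Lists downstream of the receptors held 0 genes past the limma adjusted threshold in DIO-HFD vs the mean of the low-fat groups, where 0 of all genes passed. Of 15 G proteins and adenylyl cyclases 1 was higher and 0 were lower at an unadjusted P below 0.05, where 11.6% of all genes had such a P. Their median log2 difference was 0.07. Gnai3, an inhibitory G protein subunit, was the 1 higher gene (log2 difference 0.19, SE 0.07, limma adjusted P = 0.274). Gnai2, Adcy4 and Adcy1 had log2 fold changes of 0.15, 0.24 and 0.29. Of 14 kinases and desensitization genes, 2 were higher and 1 was lower at such a P (11.6% of all genes). Prkaca, the catalytic subunit of protein kinase A, averaged 7005 ± 1959.6 normalized counts in DIO-HFD, 10342 ± 2543 in CON-LFD, 9171 ± 1501 in DIO-LFD and 8002 ± 1163 in DIO-VSG (log2 difference −0.40 against the mean of the low-fat groups, SE 0.18, limma adjusted P = 0.407). Prkar1b, a regulatory subunit, averaged 363 ± 49.6 in DIO-HFD, 335.5 ± 36 in CON-LFD, 339 ± 43.0 in DIO-LFD and 225 ± 20.1 in DIO-VSG. It was DIO-VSG that stood apart, with separate ranges from each of the other groups, and DIO-VSG minus DIO-HFD was −0.68 (limma adjusted P = 0.243) while DIO-HFD minus CON-LFD was 0.11 (limma adjusted P = 0.781). Akap12, an anchoring protein, and Grk5, a receptor kinase, were also lowest in DIO-VSG, at 4933 ± 1314 and 1367 ± 249 against 12011 ± 6844 and 2233 ± 784 in DIO-HFD.

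Among 17 phosphodiesterases other than Pde3b, 2 were higher and 1 was lower in DIO-HFD vs the mean of the low-fat groups at an unadjusted P below 0.05, where 11.6% of all genes had such a P. Pde2a, which cGMP stimulates, averaged 11213 ± 3370.0 in DIO-HFD, 7435 ± 1472 in CON-LFD, 9329.8 ± 3100.4 in DIO-LFD and 7692 ± 801 in DIO-VSG (log2 difference 0.44 against the mean of the low-fat groups, SE 0.19, limma adjusted P = 0.379). Pde3a, the close relative of Pde3b, had a log2 difference of 0.43 (limma adjusted P = 0.467). For Pde7a and Pde1a, DIO-VSG (5374 ± 442 and 1405 ± 78.6) was close to DIO-HFD (5341 ± 676 and 1407 ± 469), and DIO-HFD minus CON-LFD was 0.45 and −0.80 (limma adjusted P = 0.257 and 0.215). The difference between Pde3b and these genes was not tested. Of 10 genes listed for insulin input to Pde3b, 0 were higher and 2 lower in the same comparison. Abhd15, which binds and stabilizes Pde3b, averaged 1220 ± 222 normalized counts in DIO-HFD, 1689.8 ± 270.0 in CON-LFD, 2053 ± 450.5 in DIO-LFD and 1506 ± 165 in DIO-VSG. Its log2 difference from the mean of the low-fat groups was −0.51 (SE 0.14, limma adjusted P = 0.201), and all DIO-LFD libraries were above all DIO-HFD libraries. The other was Pdk1 (−0.52, limma adjusted P = 0.287), a symbol that denotes pyruvate dehydrogenase kinase and not the kinase upstream of Akt. Akt1 and Pik3ca both had 0.13.

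Of the 9 lipolytic effectors, 0 had an unadjusted P below 0.05 in DIO-HFD vs the mean of the low-fat groups, and 7 of 9 differences were negative. Abhd5, the coactivator of adipose triglyceride lipase, had a log2 difference of −0.58 (limma adjusted P = 0.441), Pnpla2, that lipase, of −0.50 (adjusted P = 0.516), Plin1, the lipid droplet coat protein, of −0.36 (adjusted P = 0.624) and Lipe, hormone-sensitive lipase, of −0.29 (adjusted P = 0.685). All 9 listed thermogenic or cAMP-responsive genes had negative differences, 8 of them at an unadjusted P below 0.05, where 11.6% of all genes were, with a median of −2.08, beside −0.38 for the members and −0.01 for all genes. Skeletal muscle markers moved with them: 12 of 12 differences were negative, 2 at an unadjusted P below 0.05, with a median of −1.9. The muscle markers were high mainly in CON-LFD replicate 4, DIO-LFD replicate 4 and DIO-VSG replicate 2, as given above. Muscle also expresses some of the listed genes, such as Cox8b, Ppargc1a and Ucp3, and its part in these differences was not tested. Cox8b, a cytochrome oxidase subunit of heart and skeletal muscle that brown and beige fat also express, averaged 209 ± 98.1 in DIO-HFD, 2267 ± 2295 in CON-LFD, 1214 ± 663 in DIO-LFD and 1354 ± 1208 in DIO-VSG (log2 difference −2.62 against the mean of the low-fat groups, SE 0.62, limma adjusted P = 0.142). Cidea, a lipid droplet protein of thermogenic adipocytes, had −3.62 (limma adjusted P = 0.165), and both genes had separate ranges. Ucp1, the uncoupling protein, had −4.86 (SE 1.65, limma adjusted P = 0.274), with an SD above the mean in CON-LFD, DIO-HFD and DIO-VSG. Adcy10, the soluble adenylyl cyclase and not itself a thermogenic protein, had −1.73 (limma adjusted P = 0.237). This list was drawn up with earlier results of these libraries known.

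Receptors that act beside the members were also measured. Of 8 other Gi-coupled receptors that restrain lipolysis, 1 was higher and 2 were lower in DIO-HFD vs the mean of the low-fat groups at an unadjusted P below 0.05. Of all genes 11.6% had such a P there. Hcar1, the lactate receptor, averaged 1672 ± 707 normalized counts in DIO-HFD, 3547 ± 1204 in CON-LFD, 4371 ± 853 in DIO-LFD and 2949.7 ± 1101 in DIO-VSG (log2 difference −1.16, SE 0.31, limma adjusted P = 0.192). Hcar2, the receptor for ketone bodies and niacin, had −0.88 (limma adjusted P = 0.237), Adora1, the adenosine A1 receptor, −0.80 (adjusted P = 0.44) and Sucnr1, the succinate receptor, 0.77 (adjusted P = 0.307). Of 11 other Gs-coupled receptors tested, 1 was higher and 2 were lower in the same comparison (11.6% of all genes). Mc5r, a melanocortin receptor, averaged 14.5 ± 13.8 in DIO-HFD, 85.5 ± 54.2 in CON-LFD, 91.4 ± 83.5 in DIO-LFD and 45.2 ± 24.8 in DIO-VSG (log2 difference −2.30 against the mean of the low-fat groups, SE 0.67, limma adjusted P = 0.218), Pth1r, the parathyroid hormone receptor, had −0.85 (adjusted P = 0.334), Mc2r, the corticotropin receptor, 0.82 (adjusted P = 0.391) and Adora2b, an adenosine receptor, 0.93 (adjusted P = 0.429). Among 10 genes of catecholamine synthesis and clearance tested, 1 was higher and 1 was lower in that comparison (11.6% of all genes). Maob, a monoamine oxidase, had −0.46 (limma adjusted P = 0.354) and Slc6a2, the norepinephrine transporter, 0.72 (adjusted P = 0.624).

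The members were not uniform in how they varied from library to library. Over the 16 libraries Pearson's r on log2(normalized count + 1) was 0.79 between Adrb1 and Pde3b and 0.69 between Adrb1 and Adrb3, and 0.62 and 0.51 for deviations from group means. Npr1 and Npr3 had r = 0.48, and Npr3 and Pde3b −0.20. These values are descriptions over libraries that share depth normalization and the mix of cells. Adrb3 had r = 0.75 with the mammary epithelium marker score (0.67 within groups) and r = 0.34 with the adipocyte score (0.10 within groups). Within groups it also had r = 0.66 with the keratinocyte score (0.22 over the 16 libraries) and 0.56 with the smooth muscle and pericyte score. The within-group r was 0.54 with the stromal progenitor score, 0.52 with the Schwann cell and nerve score and −0.46 with the endothelial score. The keratinocyte score was highest in DIO-HFD replicate 4, at 3.82. The summed level of 11 epithelial markers was 34451 to 72411 in DIO-HFD and 53125 to 103486 in CON-LFD. The part of epithelial, keratinocyte or stromal content in the Adrb3 levels was not tested. Npr3 had r = 0.67 with the adipocyte score within groups and −0.48 with the B cell score.

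**Figure D4:**
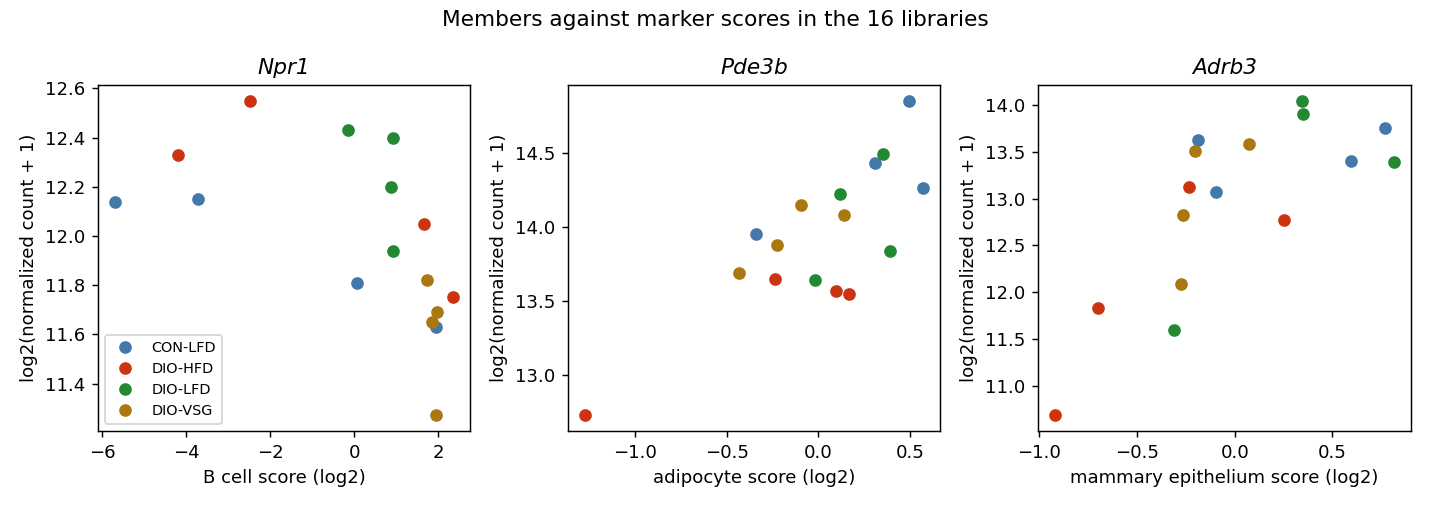
Log2(normalized count + 1) of Npr1, Pde3b and Adrb3 (y axes) against the B cell, adipocyte and mammary epithelium marker scores (x axes, mean log2 deviation of the list from its mean over libraries), with 1 point for each of 16 libraries colored by group. The 4 DIO-VSG libraries lie together at B cell scores from 1.75 to 1.96, and DIO-HFD replicate 1 stands alone at an adipocyte score of −1.27.

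The genes whose levels were most like those of Adrb3, Npr3 and Pde3b were taken by Pearson's r over the 16 libraries among all 21218 genes tested. For Pde3b they were Sowahc (r = 0.965), Smim19 (0.955), Plpp6 (0.952), Pex13 (0.949) and Arxes2 (0.949). For Npr3 they were Tln2 (0.954), Adamts5 (0.950), Prkcdbp (0.938), Rtn4rl1 (0.937) and Prr32 (0.928). For Adrb3 the nearest were Mterf4 (0.895), Gpa33 (0.878), Pcdhga8 (0.867), Wbp1 (0.867) and Gm15929 (0.863), of which Gpa33 and Gm15929 averaged 20.2 and 28.1 normalized counts. No other member was among these 15 genes.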

How the data were processed

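RNA was sequenced from 16 mammary adipose samples, 4 per group, each from a separate animal, so that P values measure spread between animals. The deposited table, called normalized counts by the authors, holds log2 values from 5.36 to 21.85 after the variance-stabilizing transformation of DESeq2. The submitters' processing notes name mm10, TopHat2 2.0.7 and HTSeq 0.5.3p9, whereas the study's methods name STAR and salmon, and which tools made the table was not settled here. The transformation was inverted to normalized counts, and whole reads were recovered for 100.0% of values (tolerance 0.1), with size factors from 0.9036 to 1.2204. Low values at this depth carry counting error, and PCR duplicates were not marked by molecular identifiers.

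All 16 libraries entered 1 limma-trend fit (limma 3.58.1 in R 4.3.3) on log2(normalized count + 1) with group as the term, over the 21218 genes that reached 10 normalized counts in 4 or more libraries. Tests were two-sided, with Benjamini-Hochberg adjustment over all genes within each of 7 comparisons at 0.05. A marker score is the mean log2 deviation of a list from its mean over libraries. The genes named were the members, up to 4 genes of each list with the smallest unadjusted P in DIO-HFD vs the mean of the low-fat groups, and the 5 genes most correlated with Adrb3, Npr3 and Pde3b. Some genes that this rule names are not reported here. Members and lists were chosen with earlier results of these data known. Alternatives were voom on reads, the deposited values, pseudocount 10, no filter, a replicate block, library weights, quantile normalization, marker covariates, the compared groups only, and leaving out libraries. The fit was tested on simulated data.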

Additional observations from a re-analysis of the deposited data

Results flagged for a closer look

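Each of 36 sets of 4 libraries was examined for a single library far from the others, and 2 stood apart by Dixon's criterion, which chance gives in about 1 of 20 sets. Pde3b in DIO-HFD replicate 1 was at 6796.58 normalized counts, while the other DIO-HFD libraries were between 12018.66 and 12821.66 (gap over range 0.867), and its adipocyte marker score of −1.27 was the lowest of the 16 libraries. The log2 ratio of Adrb3 to Adra2a per kilobase in DIO-LFD replicate 1 was 3.13, while the other DIO-LFD libraries were between 6.44 and 6.86 (gap over range 0.887), with Adrb3 at 3085.5 normalized counts and Adra2a at 610.3 in that library. The causes were not tested.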

How the results depend on the processing

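With library weights, members past the adjusted limma threshold numbered 3 in DIO-HFD vs CON-LFD (19.8% of all genes), 2 in DIO-VSG vs DIO-HFD (Adrb1 and Npr1, 17.6% of all genes), 2 in DIO-LFD vs DIO-HFD (Adra1a and Adrb1, 8.54%), 1 in DIO-VSG vs CON-LFD (Adra1a, 19.9%) and 3 in DIO-HFD vs the mean of the low-fat groups (Adrb1, Pde3b and Adra1a, 4350 of 21218 genes). With the adipocyte score as a covariate, 3 passed in DIO-VSG vs DIO-HFD (Npr1, Npr3 and Adrb1, 15.2% of all genes) and 2 in DIO-HFD vs the mean (Npr1 and Npr3, 6.81%), and with the compared groups only, 2 passed in DIO-VSG vs DIO-LFD (Npr1 and Adra1a, 7.22%). The cause was not tested. No member passed in any fit without 1 library, and the other settings gave 0. With a replicate block 0 members passed in each comparison, and same-numbered libraries had correlations from −0.609 to 0.534, so the numbers do not pair the samples. Without length correction the mean log2 ratio of Npr1 to Npr3 was −3.46 in CON-LFD, −3.79 in DIO-HFD and −2.72 in DIO-LFD, and that of Adrb3 to Adra2a 5.16 in CON-LFD and 4.33 in DIO-HFD, a constant shift by transcript length. Leaving out libraries low in B cell markers or high in skeletal muscle markers, and the skeletal muscle covariate, were chosen after seeing the data. The 4 animals per group limit the precision of every difference.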
